A study of Mus musculus with 36 samples.

Results

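The genes described here are 10 genes of the fat cell programme that serve as markers of marrow adipocytes. They are the transcription regulators Pparg and Cebpa, the lipid-handling genes Lpl and Fabp4, the lipid droplet genes Plin1, Plin4 and Cidec, and the secreted factors Adipoq, Lep and Cfd. They were chosen by gene symbol, not by a cut on a measured value, though with earlier results of these data known. They are 10 of the 30284 genes in the data. All 10 were found, with 1 gene identifier each.

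The study measured RNA in cultures of leg bone cells. The mice were 20 weeks old and either wild-type (WT) or Mir324-null, a genotype named for the gene of the microRNA miR-324. Bone marrow macrophages (BMM) were flushed from the marrow, expanded in 100 ng/mL M-CSF, the macrophage growth factor, for 3 days and then kept for 5 days at 30 ng/mL. Osteoclast cultures (OC) started from the same macrophages and received the osteoclast-inducing ligand RANK-L at 50 ng/mL beside M-CSF at 30 ng/mL for those 5 days. Osteoblast cultures (OB) were cells that had grown out of bone chips over about 6 weeks and were then held for 18 days with 2 mM β-glycerophosphate and 50 µg/mL ascorbic acid. There were 6 libraries in each of the 6 groups, or 36 together. No adipogenic inducer is named for any culture, and the allele, strain and sex of the mice are not given in the sources used here. Nothing says whether the 6 libraries of a group came from separate mice, so p-values measure the spread between these libraries, which may be technical.

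In fat cells the nuclear receptor PPARγ, encoded by Pparg, and C/EBPα, encoded by Cebpa, sustain each other and switch on the genes of lipid storage. Marrow adipocytes arise from stromal cells that can also form osteoblasts, which is why these genes are read in bone cultures. Several of them are not specific to fat cells: macrophages also use Pparg, Cebpa, Lpl and Fabp4, and PPARγ acts in osteoclast formation. Adipoq, Plin1, Cidec, Lep and Cfd mark the mature fat cell more narrowly.

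Marker genes show what the cultures held. The summed level of 9 osteoclast markers (Ctsk, Acp5 and others) was 31300 to 35500 TPM (the deposited level, corrected for library size and transcript length) in WT OC and 256 to 584 TPM in the libraries labelled null OC. All 9 of the 9 markers were lower in null OC, where 33.1% of all 12129 tested genes were lower. The summed level of 12 macrophage markers (Csf1r, Adgre1, Lyz2 and others) was 55400 to 65000 TPM in null OC and 17800 to 20200 TPM in WT OC. The null OC libraries therefore go against their label as osteoclasts, and every null against WT value in OC below compares libraries with osteoclast transcripts and libraries nearly without them. Osteoblast cultures were mixed: the 12 osteoblast markers summed to 28700 to 38800 TPM in WT OB and 43300 to 58900 TPM in null OB, the macrophage markers to 16600 to 20500 TPM and 9800 to 14700 TPM, and the osteoclast markers to 4150 to 5210 TPM and 5400 to 8220 TPM. In OB, 9 of 12 macrophage markers were lower in null, while Csf1r, Ptprc and Itgam did not pass the test. Lyz2 alone averaged 14900 TPM in WT OB and 9609 TPM in null OB. Higher in null were 4 of 9 osteoclast markers and 6 of 11 tested osteoblast markers, and the others of those lists did not pass. Among all 13614 genes tested in OB, 16.9% were lower and 15.5% higher. Of 4 chondrocyte markers, 3 (Sox9, Acan and Col2a1) were also higher in null OB, with a list median of 1.13 on the log2 scale, and the 4 summed to 88.3 to 173 TPM in WT OB and 273 to 768 TPM in null OB, without overlap. Across genes, the null against WT change in OB also went with transcript length (Spearman 0.548 over 13614 genes, which are not independent replicates), against -0.197 in BMM and 0.0139 in OC. The part that these shifts have in the values below was not tested except where a value is given. Library totals ranged from 14118972 to 26347581 estimated counts. The transcript of Mir324 itself is listed in 0 of the 36 tables, so the deletion could not be checked in these data.

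The microRNA of the mutated gene is printed here because its seed, the bases that pair with a target, sets which of the 10 genes carry a matching site. Both arms lie in the hairpin at chr11:70012043-70012131 (GRCm38.p6, + strand) and are given 5′ to 3′ from RefSeq, with the seed at bases 2 to 8 in capitals.
miR-324-5p: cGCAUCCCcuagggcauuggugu
miR-324-3p: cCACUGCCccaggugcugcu

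Matches to the 7 seed bases were searched in the longest annotated 3′ untranslated region (UTR) of each of the 10 genes, on the transcribed strand. Cebpa held 2 matches to miR-324-3p and Cidec 2 matches to miR-324-5p, and the other 8 genes held none, Pparg and Lpl included. The sites are shown with their surroundings, on the gene's strand of GRCm38, the match in capitals.
Cebpa 3′ UTR, chr7:35120950-35120979, + strand: gctgagatcccGGCAGTGccctgagctgcc
Cebpa 3′ UTR, chr7:35121440-35121469, + strand: ccttgtgcaatGGCAGTGtgcacgtctatg
Cidec 3′ UTR, chr6:113424927-113424956, - strand: ccggcatgccaGGGATGCagatctgggggg
Cidec 3′ UTR, chr6:113424893-113424922, - strand: cacctgtgccaGGGATGCagatctgggggg
Of 21842 protein-coding genes, counted whether or not a 3′ UTR is annotated, 12.2% held a miR-324-3p match (GGCAGTG) and 7.11% a miR-324-5p match (GGGATGC). Neither kind is thus rare. A match is a string of letters, and whether the microRNA acts there was not tested.

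The narrow markers of the mature fat cell were at or near 0 in every group. Plin1 (perilipin 1, the coat of the fat cell's lipid droplet), Lep (leptin, the satiety hormone) and Cidec (a protein of droplet fusion) had 0 estimated counts in all 36 libraries. Over the 700943014 counts of all libraries, 0 counts allow a level of up to 0.00428 CPM (counts scaled to library size), and over the 12 OB libraries up to 0.0125 CPM, for counting error only, since reads are not independent molecules. Cfd (adipsin, a complement protease secreted by fat) had 2 counts in all, 1 in null OB replicate 3 and 1 in null OB replicate 5. Thus 4 of the 10 genes stayed at or under 3 counts in each of the 36 libraries. Those detected well are not specific to fat cells, and which cells they came from was not tested. The 10 genes together are therefore not read here as a signal of marrow adipocytes.

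Adipoq, which encodes adiponectin, had 11 counts in all, of which 8 lay in WT OB. Those 8 were 2 counts in WT OB replicate 2 and 6 counts in WT OB replicate 3; the other 4 WT OB libraries and the 6 null OB libraries had 0. The remaining 3 counts were single ones in WT BMM replicates 1 and 5 and in null OC replicate 5. Adipoq was thus seen in 2 of 6 WT OB libraries and in 0 of 6 null OB libraries, too few counts for a test. Plin4, perilipin 4 of small droplets, had 99 counts in all and at most 10 in a library. Its counts were 4, 7, 7, 7, 0 and 10 in WT OB and 9, 7, 4, 2, 3 and 9 in null OB, so the groups overlapped over nearly their whole range, at 0.0793 ± 0.0473 and 0.0789 ± 0.0418 TPM (SD, n = 6). Plin4 had 0 to 5 counts per library in WT BMM, 0 to 7 in null BMM, 1 count in the whole of WT OC and 0 in null OC. It overlaps Hdgfl2 on the opposite strand, and the strand used for counting is not given in the sources used here.

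**Figure D1:**
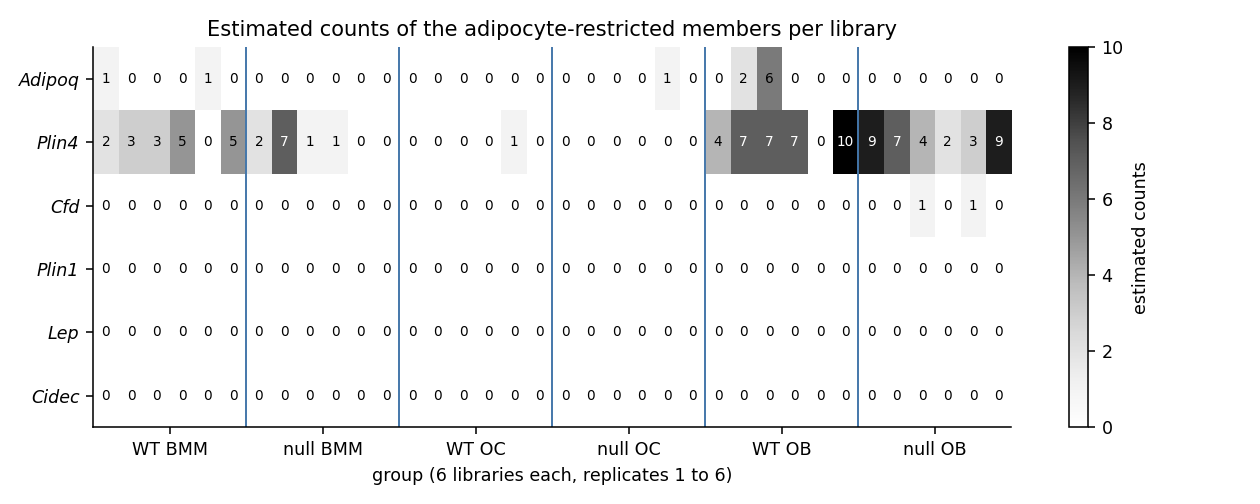
Estimated counts of the 6 narrow fat cell markers (rows) in each of the 36 libraries (columns, 6 libraries for each group, replicates 1 to 6 from left to right), with darker cells for higher counts. Plin1, Lep and Cidec are 0 throughout, Adipoq reaches 6 counts in 1 WT OB library and Plin4 at most 10.

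The other 4 genes, Pparg, Cebpa, Fabp4 and Lpl, had counts in all 36 libraries and were the only members to pass the filter on low counts in each comparison. Their changes are given as log2 fold changes, on which 1 is a doubling, with edgeR's quasi-likelihood test and Benjamini-Hochberg adjustment over all tested genes. In OB, the comparison of chief interest, 3 of the 4 fell in null (Pparg, Cebpa and Fabp4) and 1 rose (Lpl). Among all 13614 genes tested in OB, 16.9% fell and 15.5% rose. In BMM, 2 of the 4 fell (Pparg and Lpl) and 1 rose (Fabp4), where 25.3% of 11935 genes fell and 27.0% rose. In OC, 2 fell (Pparg and Lpl) and 2 rose (Cebpa and Fabp4), where 33.1% of 12129 genes fell and 32.4% rose. With so large a share of all genes past the threshold, a call in these data is common, and the sizes below carry more than the counts. In these bulk cultures, fewer cells of a type and less RNA per cell cannot be told apart.

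**Figure D2:**
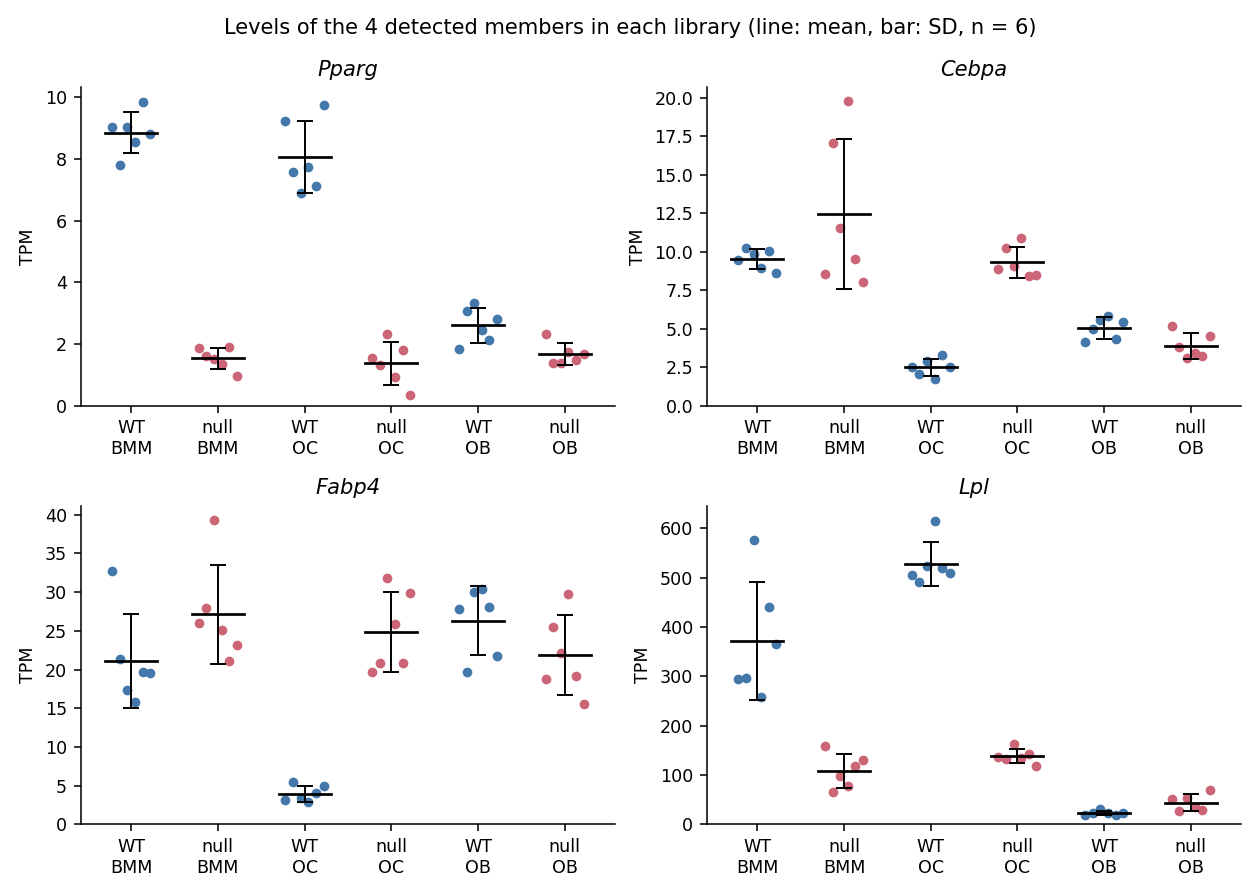
Level (TPM, linear axis from 0) of Pparg, Cebpa, Fabp4 and Lpl in each library (points, blue for WT and red for null), with the mean (line) and SD (bar) of the 6 libraries of a group. Pparg is lower in null than in WT in BMM and OC without overlap, and Lpl is lower in null in BMM and OC but higher on average in null OB.

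Pparg (ENSMUSG00000000440, chr6:115360951-115490399, + strand) was the most reduced of the 4 genes in null macrophages. In WT BMM its level was 9.04, 7.81, 9.04, 8.56, 9.85 and 8.80 TPM in replicates 1 to 6, and in null BMM 1.86, 1.60, 1.51, 1.37, 1.90 and 0.977 TPM. The lowest WT BMM library stood far above the highest null BMM library. The fitted change was a 5.22-fold fall (log2 -2.38, SE 0.15, adjusted p = 2.28e-09). In OC the WT libraries had 6.91 to 9.76 TPM and the null libraries 0.344 to 2.31 TPM, again without overlap, a 5.18-fold fall (log2 -2.37, SE 0.27, adjusted p = 8.03e-07).

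In OB the difference in Pparg was smaller, and it started from a lower level. WT OB had 1.85, 3.06, 3.33, 2.46, 2.14 and 2.81 TPM and null OB 2.34, 1.39, 1.39, 1.74, 1.495 and 1.68 TPM. In null OB, 5 of 6 libraries lay below every WT OB library, and replicate 1, at 2.34 TPM, lay inside the WT range. The fitted fall was 1.77-fold (log2 -0.82, SE 0.19, adjusted p = 0.0036), from 44 to 67 counts per library in WT OB and 26 to 48 in null OB. The ratio of mean levels, null to WT, was 0.642 in TPM and 0.565 in CPM, the scale of the test, so the fall was smaller in TPM. The fall stayed past the threshold without each of the 12 libraries in turn, at -0.94 to -0.75 on the log2 scale, and with each library's trend with transcript length removed, at -0.74 (adjusted p = 0.015). It was lost with length and GC trends removed together with a block for the replicate number, at -0.74 (adjusted p = 0.0554). The 12 macrophage markers had a median log2 change of -0.54 in the same libraries. Of them 9 fell, while Csf1r (0.05), Ptprc (0.02) and Itgam (-0.06) did not pass the test.

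By mean level, the order of Pparg was WT BMM (8.85 ± 0.67 TPM, SD, n = 6), WT OC (8.06 ± 1.16), WT OB (2.61 ± 0.56), null OB (1.67 ± 0.36), null BMM (1.54 ± 0.34) and null OC (1.37 ± 0.69). In that order only WT OC and WT OB were separated without overlap; every other pair of neighbours overlapped. The 3 null groups thus had similar Pparg levels, within their spread, although their cultures differ.

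The Pparg gene is read from separate starts. In the annotation Pparg-202 begins at the upstream start (chr6:115360951) and encodes 475 codons, the form known as PPARγ1, and Pparg-201 begins further into the gene (chr6:115422066) and encodes 505 codons, the form known as PPARγ2 that is typical of fat cells. Pparg-202 carried 100% of the Pparg level in all 6 WT BMM libraries, and on average 93.1% in WT OC, 87.0% in null BMM, 86.5% in WT OB, 84.4% in null OC and 81.9% in null OB. Pparg-201 was at 0 TPM in WT BMM, averaged 0.323 ± 0.632 TPM in WT OB and 0.256 ± 0.559 TPM in null OB (SD, n = 6); no test was run on single transcripts.

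The split between the forms was uneven among replicates. Pparg-201 took 32.2 of the gene's counts in WT OB replicate 4 and all 26 counts in null OB replicate 2, which had 0 counts of Pparg-202. In WT OB, 2 of 6 libraries held any Pparg-201 counts. In WT OC replicates 5 and 6 it had 34.6 and 36.03 counts, and 0 or nearly 0 in the other 4 libraries. The transcripts share most of their sequence, so these are the quantifier's estimates of a split and no differences between groups were tested.

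**Figure D3:**
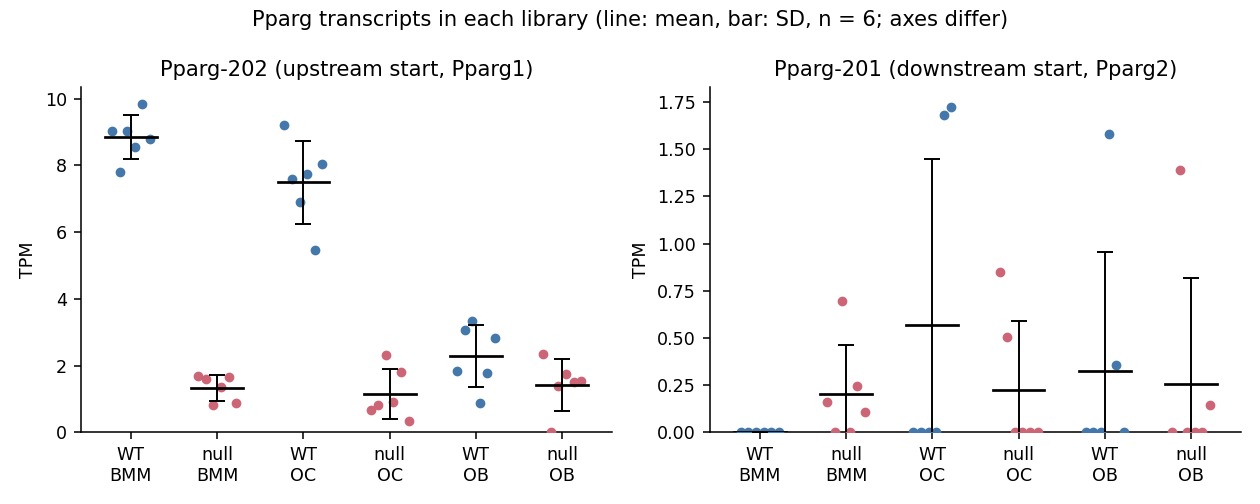
Level (TPM) of the upstream-start transcript Pparg-202 (left) and the downstream-start transcript Pparg-201 (right) in each library, with mean and SD over 6 libraries per group and a separate axis for each panel that starts at 0 and ends the lower SD bars there. Pparg-202 follows the gene's pattern, with WT BMM highest at 8.85 TPM on average, while Pparg-201 is at or near 0 in most libraries and above 1 TPM in 4.

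The DNA at both starts is shown because they differ in composition. Each is the window of 250 bases before to 50 bases after a RefSeq start (GRCm38.p6, + strand), with a found motif in capitals. The upstream window contains the annotated start of Pparg-202 (chr6:115360951) but is placed on a RefSeq start further downstream. The downstream window is placed on the start of Pparg-201.
Pparg upstream promoter, chr6:115360894-115361193: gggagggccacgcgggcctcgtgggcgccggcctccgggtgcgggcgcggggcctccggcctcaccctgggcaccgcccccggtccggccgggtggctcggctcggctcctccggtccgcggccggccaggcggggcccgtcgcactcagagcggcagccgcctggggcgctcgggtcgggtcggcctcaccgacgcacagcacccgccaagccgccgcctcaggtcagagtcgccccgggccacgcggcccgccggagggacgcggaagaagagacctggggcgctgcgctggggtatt
Pparg downstream promoter, chr6:115421816-115422115: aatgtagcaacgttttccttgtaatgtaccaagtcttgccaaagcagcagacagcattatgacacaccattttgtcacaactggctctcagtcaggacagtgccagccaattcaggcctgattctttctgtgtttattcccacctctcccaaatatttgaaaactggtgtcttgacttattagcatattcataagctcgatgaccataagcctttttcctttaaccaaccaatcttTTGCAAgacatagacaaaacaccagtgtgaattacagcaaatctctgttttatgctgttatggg
The upstream window is 80.3% G and C with 44 CpG pairs, and 99.1% of the 32851 promoter windows have less G and C. The downstream window is 40.3% G and C with 2 CpG pairs, and 10.7% of windows have less. Motifs were searched on both strands: TTGCAA, part of the C/EBP site, which 6.23% of windows hold; TATAAA, the TATA box, which 13.62% hold; and GAGGAA, the core bound by the macrophage factor PU.1, which 28.28% hold. The downstream window held 1 TTGCAA and the upstream window none of the 3. A further RefSeq window between them (chr6:115362099-115362398, 62.7% G and C) held 1 TATAAA and 1 GAGGAA. A match is not a bound site. Windows were found for 8 of the 10 genes, not for Fabp4 and Lpl.

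Cebpa (ENSMUSG00000034957, chr7:35119293-35121928, + strand), which holds the 2 miR-324-3p matches shown above, moved in opposite directions in OC and OB. In WT OC its level was 1.76 to 3.26 TPM (median 2.502) and in null OC 8.40 to 10.9 TPM (median 8.98). The groups did not overlap, and the fitted rise was 4.27-fold (log2 2.09, SE 0.15, adjusted p = 2.27e-09). In OB the level was 4.12, 4.98, 5.54, 5.83, 4.33 and 5.45 TPM in WT and 5.17, 3.796, 3.07, 3.42, 3.23 and 4.54 TPM in null, a 1.48-fold fall (log2 -0.57, SE 0.14, adjusted p = 0.0063). The ratio of mean OB levels, null to WT, was 0.767 in TPM and 0.676 in CPM, the scale of the test, so the fall was smaller in TPM. In null OB, 4 of 6 libraries lay below every WT OB library, and replicates 1 and 6 lay inside the WT range. The OB fall stayed past the threshold in all 23 alternative fits, at adjusted p of 0.0011 to 0.0285.

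In BMM Cebpa did not pass the test, and null BMM was uneven. WT BMM had 8.61 to 10.2 TPM. Null BMM had 8.58, 17.0, 11.6, 19.8, 9.54 and 8.03 TPM, so replicates 2 and 4 stood high, 1 further library lay above WT and 2 lay below it. The log2 difference was 0.56 (SE 0.23, adjusted p = 0.0528, 95% interval 0.113 to 1.01, not adjusted for the number of genes). It fell to 0.37 without null BMM replicate 4 and was past the threshold, at 0.65 to 0.68, without null BMM replicate 1, 5 or 6 (adjusted p = 0.0207, 0.0331 and 0.0171). Across all groups the mean was highest in null BMM (12.4 ± 4.9 TPM, SD, n = 6), then WT BMM (9.51 ± 0.64), null OC (9.32 ± 1.01), WT OB (5.04 ± 0.69), null OB (3.87 ± 0.82) and WT OC (2.503 ± 0.543), and only null OC and WT OB were separated without overlap in that order.

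Fabp4 (ENSMUSG00000062515, chr3:10204088-10208576, - strand) encodes a carrier of fatty acids that fat cells and macrophages share, and it was the gene of the 10 with the largest genotype difference in OC. WT OC had 3.14, 5.43, 3.36, 2.92, 3.99 and 4.91 TPM and null OC 19.7, 20.9, 31.8, 25.8, 20.9 and 29.9 TPM. WT OC stood apart from the 5 other groups, whose means lay between 21.1 and 27.2 TPM and overlapped. The fitted rise in null OC was 7.02-fold (log2 2.81, SE 0.20, adjusted p = 2.46e-09). The macrophage marker sum was higher in the same null OC libraries, as given above.

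In BMM Fabp4 had 15.9 to 32.8 TPM in WT and 21.1 to 39.3 TPM in null, a 1.45-fold rise (log2 0.54, SE 0.20, adjusted p = 0.0347) with overlapping groups. That call was lost without any of 7 libraries, WT BMM replicates 2 to 6 and null BMM replicates 2 and 3, at 0.38 to 0.54 (adjusted p = 0.057 to 0.0922). In OB the level was 27.8, 19.7, 30.0, 30.5, 28.02 and 21.8 TPM in WT and 18.8, 25.5, 22.2, 29.8, 19.2 and 15.5 TPM in null. The fitted fall was 1.37-fold (log2 -0.45, SE 0.16, adjusted p = 0.0469), and 3 of 6 null OB libraries lay below every WT OB library. The ratio of mean OB levels, null to WT, was 0.83 in TPM and 0.736 in CPM, the scale of the test, so the fall was smaller in TPM. The OB call was lost without any of 8 libraries, WT OB replicates 1, 3, 4 and 5 and null OB replicates 1, 3, 5 and 6, at -0.45 to -0.37 (adjusted p = 0.0746 to 0.103). With each library's trend with transcript length removed, the OB difference was -0.18 (adjusted p = 0.528). Nearly all of the gene's level, at least 96.8% in every library, came from Fabp4-201, whose 896 bases make it a short transcript.

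Lpl (ENSMUSG00000015568, chr8:68880491-68907448, + strand), lipoprotein lipase, releases fatty acids from circulating triglyceride and was the most abundant of the 10 genes in 5 of the 6 groups. WT BMM had 294, 296, 576, 258, 441 and 366 TPM and null BMM 158, 64.6, 98.6, 78.0, 118 and 131 TPM. The groups did not overlap, and the fitted fall was 2.72-fold (log2 -1.44, SE 0.18, adjusted p = 1.2e-05). WT OC had 506, 491, 523, 616, 520 and 510 TPM and null OC 137, 133, 162, 135, 143 and 118 TPM. The fall there was 3.19-fold, with an SE of 0.07 (log2 -1.67, adjusted p = 2.22e-12), the smallest error among the 4 genes.

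In OB, Lpl went the other way. WT OB had 19.6, 21.9, 30.1, 23.1, 19.5 and 22.3 TPM and null OB 51.4, 26.8, 53.4, 35.2, 28.4 and 69.4 TPM. In null OB, 4 of 6 libraries lay above every WT OB library, and replicates 2 and 5 lay inside the WT range. The fitted rise was 1.68-fold (log2 0.74, SE 0.21, adjusted p = 0.0160), and it stayed past the threshold without each library in turn, at 0.57 to 0.86, and with the length trend removed, at 0.71 (adjusted p = 0.0371). It was lost with length and GC trends removed together with the replicate block, at 0.65 (adjusted p = 0.0674). Null OB also varied more, at 44.1 ± 16.8 TPM against 22.7 ± 3.9 TPM in WT OB (SD, n = 6). The ratio of mean levels was 1.94 in TPM and 1.68 in CPM, the scale of the test.

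Lpl is split in the tables over 4 transcripts. The full-length coding transcript Lpl-201 (4115 bases) and Lpl-203 (1900 bases, annotated as subject to nonsense-mediated decay) carried most of the level in each group. The retained-intron transcript Lpl-202 held on average 7.43% of it in WT OB and 7.25% in null OB, and 0.955% to 1.86% in the BMM and OC groups. Lpl-203 held 61.1% to 64.8% of Lpl TPM in WT BMM libraries and 18.7% to 56.9% in null BMM libraries, which did not overlap. In OC its share was 60.3% to 63.0% in WT and 52.9% to 65.3% in null, and in OB 45.1% to 61.2% and 48.4% to 61.2%. Lpl-201 alone, in TPM, was 132 ± 42 in WT BMM and 56.5 ± 6.9 in null BMM, and 8.89 ± 1.16 in WT OB and 16.7 ± 6.6 in null OB (SD, n = 6), in the directions of the gene as a whole. Both transcripts share sequence, so these shares are estimates too.

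Whether the genotype effect differed between cultures was tested directly, in 1 fit of all 36 libraries. Between OB and BMM the effect differed for all 4 genes, where 45.8% of 14278 genes differed: it was higher in OB by 1.57 (SE 0.31) for Pparg and by 2.20 (SE 0.24) for Lpl, and lower in OB by a log2 difference of -1.12 (SE 0.26) for Cebpa and -0.98 (SE 0.27) for Fabp4. Adjusted p was at most 0.0037. Between OB and OC it also differed for all 4, where 55.3% of genes differed, by 1.56 (SE 0.31) for Pparg, 2.44 (SE 0.24) for Lpl, -2.65 (SE 0.28) for Cebpa and -3.25 (SE 0.29) for Fabp4. Both of these comparisons use the same 12 OB libraries and are not independent. For Lpl and Fabp4 the genotype effect had opposite signs in OB and in both marrow cultures, with each effect past the threshold, although the OB calls of both and the BMM call of Fabp4 were lost in alternatives given above. For Cebpa the signs were opposite in OB and OC.

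Between OC and BMM, the cultures with and without RANK-L, the genotype effect differed for 2 of the 4 genes, where 47.5% of all genes differed. The null OC libraries held few osteoclast transcripts, as given above, and the part of this in the differences was not tested. The null against WT difference was larger in OC by 1.53 (SE 0.27, adjusted p = 8.68e-06) for Cebpa and by 2.27 (SE 0.29, adjusted p = 3.04e-08) for Fabp4. For Pparg the difference of effects was 0.01 (95% interval -0.613 to 0.64, adjusted p = 1.0), and for Lpl -0.23 (95% interval -0.695 to 0.232, adjusted p = 0.458). Those intervals still allow a difference of about the stated bounds, so equal effects are not shown.

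**Figure D4:**
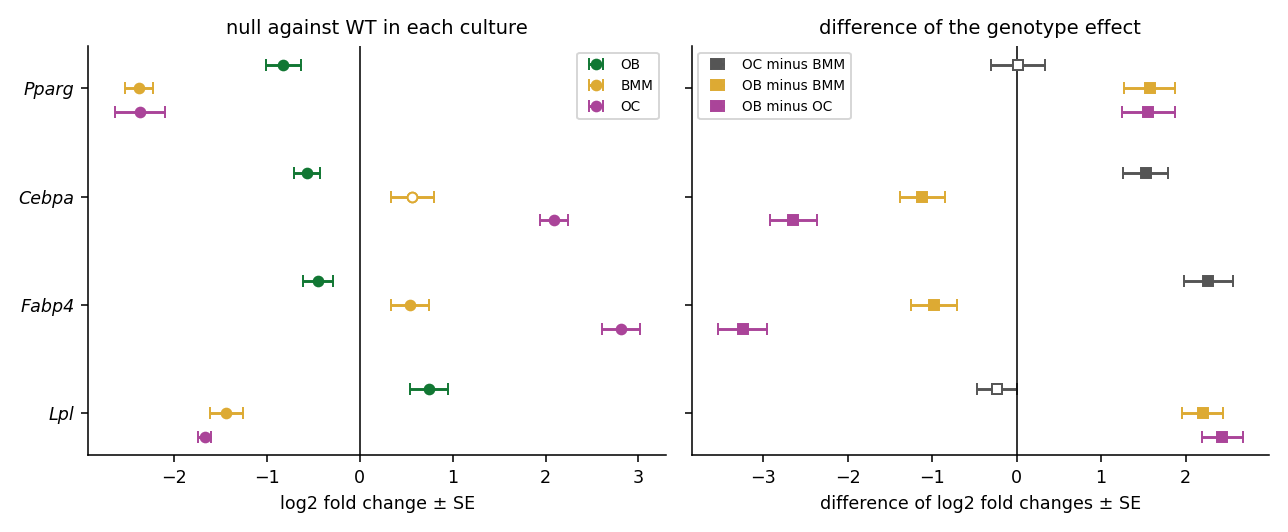
Left, log2 fold change of null against WT in OB, BMM and OC for each of the 4 tested genes. Right, the difference of that effect between cultures, with bars for the SE and filled symbols for an adjusted p under 0.05. Lpl lies at 0.74 in OB and at -1.44 and -1.67 in BMM and OC, and the Pparg difference between OC and BMM is 0.01.

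In WT cells the same genes changed with culture. With RANK-L (WT OC against WT BMM), Cebpa fell 4.09-fold (log2 -2.03, SE 0.20) and Fabp4 5.39-fold (log2 -2.43, SE 0.22), Lpl rose 1.33-fold (log2 0.41, SE 0.17, adjusted p = 0.0355) and Pparg differed by -0.26 (95% interval -0.638 to 0.126, adjusted p = 0.275). Thus 3 of the 4 passed, where 56.2% of all genes did. The Lpl call was lost with no filter (0.41, adjusted p = 0.0647) and with an offset for average transcript length (0.34, adjusted p = 0.116). Osteoblast cultures against macrophages (WT OB against WT BMM) had 15.97-fold lower Lpl (log2 -4.00, SE 0.19), 3.50-fold lower Pparg (log2 -1.81, SE 0.21) and 1.93-fold lower Cebpa (log2 -0.95, SE 0.19), while Fabp4 differed by 0.29 (95% interval -0.0898 to 0.671, adjusted p = 0.172). Again 3 of 4 passed, where 76.8% of all genes did. Beside this, the macrophage marker sum was 50400 to 61400 TPM in WT BMM. Both comparisons share the WT BMM libraries.

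The other genes of the fat cell pathway were read from lists in null against WT OB, as counts beside the median of all tested genes (0.00 on the log2 scale). Over all 13614 genes tested in OB, 15.5% rose and 16.9% fell, so calls are to be found in any list. The log2 changes are on the scale of the test and can differ from the ratio of the TPM means printed beside them. Among 16 tested regulators of adipogenesis, 4 rose and 1 fell, with a median of -0.02. Ebf1, an early factor of the fat lineage, rose from 23.4 ± 3.9 to 49.7 ± 1.5 TPM (log2 0.85, SE 0.09). Ppargc1b, a coactivator of nuclear receptors, rose from 3.34 ± 0.63 to 7.95 ± 2.08 TPM (1.09, SE 0.18), and Med1, a Mediator subunit that binds PPARγ, by 0.35 (SE 0.05). Stat5a was the other gene that rose, at 0.24, named here after its value was seen. Rxra, the partner with which PPARγ binds DNA, fell by 0.26 on the log2 scale (adjusted p = 0.0491), a call kept only without WT OB replicate 1 or null OB replicate 6 and lost without any of the other 10 libraries (adjusted p = 0.0614 to 0.143).

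Among 13 tested brakes on adipogenesis 2 rose and 2 fell, with a median of -0.04. The corepressor gene Ncor1 was among those that rose (0.31, SE 0.06), the orphan receptor gene Nr2f2 fell from 4.87 ± 0.62 to 3.11 ± 0.28 TPM (log2 -0.78, SE 0.10), and Id2 fell by 0.59 (SE 0.18), a call lost without WT OB replicate 3, 4 or 5 or null OB replicate 1 (adjusted p = 0.0514 to 0.0548). Of 11 tested genes of the droplet coat and lipolysis, 0 rose and 4 fell, with a median of -0.21. G0s2, an inhibitor of triglyceride breakdown, fell from 33.0 ± 4.6 to 16.7 ± 4.9 TPM (log2 -1.17, SE 0.18), Bscl2 (seipin, needed to form droplets) by 0.37 (SE 0.05) and Plin2, the droplet coat of most cell types, by 0.23 (SE 0.06), from 265 ± 17 to 252 ± 21 TPM. Cideb was the remaining gene that fell, a low one named after its value was seen.

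Among 19 tested genes of fatty acid uptake and triglyceride synthesis, 5 rose and 1 fell, with a median of 0.07. The 5 were Acaca, Scd2, Gpam, Fasn and Acly, enzymes that make fatty acids or build them into glycerolipid, the last pair named after their values were seen. Acaca (acetyl-CoA carboxylase) rose from 3.90 ± 1.06 to 6.20 ± 1.05 TPM (log2 0.65, SE 0.12), Scd2 (a desaturase) from 84.6 ± 4.3 to 128 ± 21 TPM (0.41, SE 0.09) and Gpam by 0.30 (SE 0.07). Fabp5, a fatty acid carrier related to Fabp4, fell from 317 ± 17 to 222 ± 32 TPM (-0.69, SE 0.10). Of 11 tested other adipocyte genes, 3 rose and 1 fell, with a median of 0.26. Rbp4, the retinol carrier, rose from 301 ± 41 to 476 ± 47 TPM (0.48, SE 0.10), Nnat by 0.81 (SE 0.22) and the insulin receptor substrate Irs1 by 0.48 (SE 0.15), while the natriuretic peptide receptor Npr3 fell by 0.82 (SE 0.14).

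Of 4 adipokine receptor genes, Adipor1 fell by 0.41 (SE 0.09) and Cdh13 rose by 0.39 (SE 0.13), the latter lost without WT OB replicate 1, 3, 4 or 5 or null OB replicate 6 (adjusted p = 0.0524 to 0.0711). Of 3 tested brown and beige fat genes 1, Dio2, fell from 1.49 ± 0.87 to 0.447 ± 0.290 TPM (log2 -1.90, SE 0.46). Among 13 tested genes of marrow stromal and adipogenic progenitors 3 rose and 4 fell, with a median of 0.27. The niche chemokine gene Cxcl12 rose from 140 ± 20 to 247 ± 38 TPM (0.69, SE 0.11), and the growth factor receptor genes Pdgfrb (0.49, SE 0.08) and Pdgfra (0.52, SE 0.15) rose too. Cd34 (-0.83, SE 0.12), Ly6a (-0.86, SE 0.13), Apoe (-0.64, SE 0.08) and Vcam1 (-0.53, SE 0.12) fell, the last named after its value was seen. Apoe is also expressed by macrophages, and it averaged 8732 TPM in WT BMM and 12530 TPM in WT OB. Vcam1 averaged 1.398 TPM in WT BMM, 4.359 TPM in null BMM and 0.1625 TPM in WT OC. In the OB libraries 9 of 12 macrophage markers fell. The part of macrophages in the falls of Apoe and Vcam1 was not tested. Every list thus held genes in both directions or too few calls to name a common one, apart from the droplet list. In that list 4 of 11 fell and 7 did not pass the test. Among all tested genes 16.9% fell, and 32.5% passed in either direction. No common direction is read from those 4, of which Plin2 lost its call with the length trend removed and Cideb was not read in that fit. Because the OB change goes with transcript length, the 28 list genes named by rule in OB were also read with each library's length trend removed: 10 of them lost their call (among them Acaca, Cdh13, Gpam, Id2, Irs1, Pdgfra, Pdgfrb, Plin2 and Scd2), and the other 18 kept it.

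**Figure D5:**
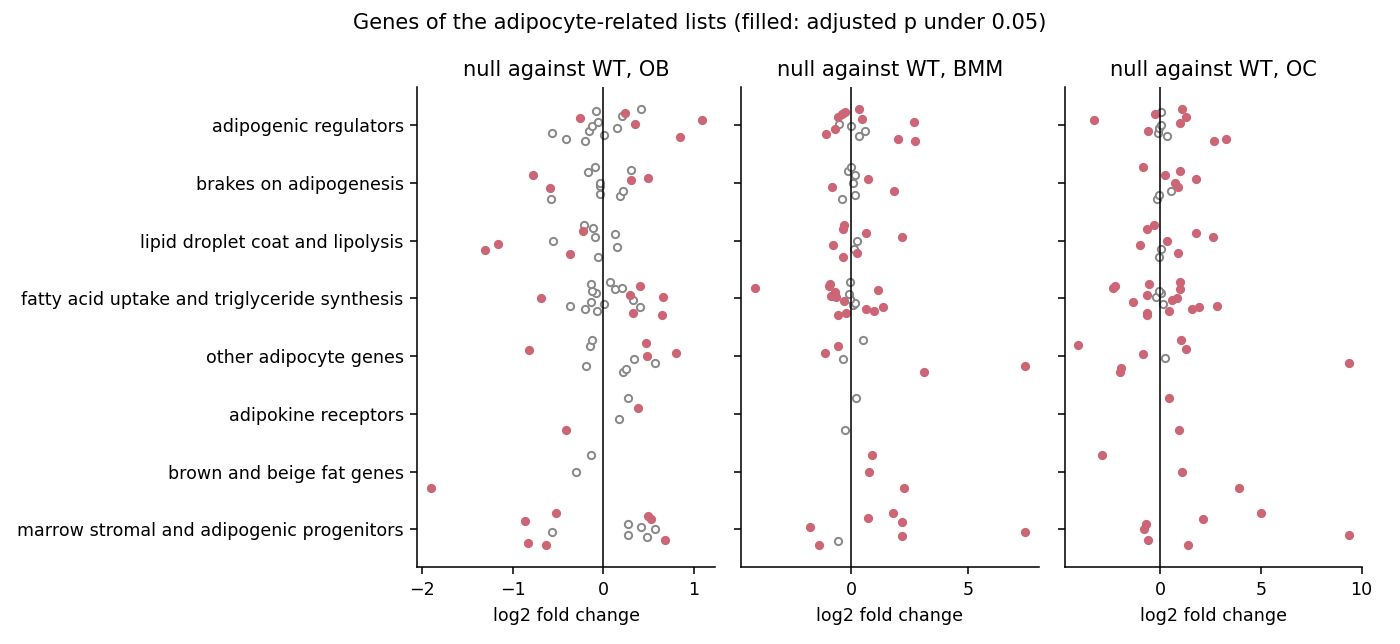
Log2 fold change of null against WT for each tested gene (point) of 8 lists of genes around the fat cell, in OB, BMM and OC, filled where the adjusted p is under 0.05; the horizontal axes differ between panels. In OB most points lie within 1 of 0 and the droplet list has 4 filled points, all below 0, while in BMM and OC single genes such as Hp lie beyond 7.

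In BMM, the regulators Nr1h3 (the sterol receptor LXRα, from 8.11 ± 2.24 to 38.7 ± 5.8 TPM, log2 2.68, SE 0.09) and Cebpb, a factor that acts before Pparg in adipogenesis (2.77 ± 0.94 to 16.4 ± 3.7 TPM, log2 2.72, SE 0.24), rose where Pparg fell; 5 of 14 tested regulators rose and 5 fell, with a median of 0.14 beside 0.02 for all tested genes. Egr2 (-1.11, SE 0.14) and Lpin1 (-0.69, SE 0.11) were among those that fell. Over all 11935 genes tested in BMM, 27.0% rose and 25.3% fell. Of 18 tested uptake and synthesis genes 4 rose and 9 fell, with a median of -0.16. Scd1, a desaturase, fell from 0.973 ± 0.397 to 0.0506 ± 0.0418 TPM (log2 -4.16, SE 0.49), with at most 6 counts in a null library, and the fatty acid transporter gene Slc27a1 from 144 ± 19 to 68.0 ± 5.7 TPM, while Acsl1 (0.97, SE 0.09) and Me1 (1.13, SE 0.10) rose. Of 9 tested droplet genes 3 rose and 4 fell (median 0.10), with Plin2 up from 592 ± 68 to 791 ± 126 TPM and Hilpda down from 32.1 ± 3.3 to 16.9 ± 1.5 TPM. Among the remaining lists in BMM, 2 of 9 tested brakes rose and 1 fell, 2 of 6 other adipocyte genes rose and 2 fell, 0 of 2 adipokine receptor genes passed, 3 of 3 brown and beige fat genes rose, and 5 of 8 progenitor genes rose and 2 fell. Hp, haptoglobin, an acute-phase gene of fat, liver and myeloid cells, rose from at most 9 counts in a WT library to 45.6 ± 1.6 TPM. Of the neutrophil markers only S100a8 was tested, and it rose in the same libraries, from 1.20 ± 0.60 to 70.2 ± 20.9 TPM. Camp averaged 0.0917 TPM in WT BMM and 0.852 TPM in null BMM. S100a9, Ltf, Ngp, Elane and Mpo averaged at most 0.0458 TPM in either group. The part of the cells behind these markers in the rise of Hp was not tested.

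In OC, 5 of 13 tested regulators rose and 3 fell in null, with a median of 0.03 beside -0.03 for all tested genes. Over all 12129 genes tested in OC, 32.4% rose and 33.1% fell. Cebpb rose from 2.67 ± 0.45 to 15.0 ± 2.4 TPM (log2 2.69, SE 0.16) and Nr1h3 from 24.5 ± 1.3 to 41.2 ± 4.2 TPM, while Ppargc1b, which supports mitochondria in osteoclasts, fell from 35.7 ± 5.0 to 3.12 ± 0.94 TPM (log2 -3.30, SE 0.15). Of 19 tested uptake and synthesis genes 8 rose and 7 fell, with a median of 0.05. The scavenger receptor and fatty acid transporter gene Cd36 rose from 99.3 ± 5.0 to 604 ± 34 TPM (log2 2.80, SE 0.06) and Scd2 fell from 36.3 ± 3.3 to 6.61 ± 2.08 TPM (-2.26, SE 0.14). Of 9 tested droplet genes 4 rose and 3 fell (median 0.03), among them Bscl2 (0.90, SE 0.08) upward and Plin3 (-0.65, SE 0.06) downward. Among the remaining lists in OC, 5 of 9 tested brakes rose and 1 fell, 3 of 8 other adipocyte genes rose and 4 fell, 2 of 2 adipokine receptor genes rose, 2 of 3 brown and beige fat genes rose and 1 fell, and 4 of 7 progenitor genes rose and 3 fell. Hp had at most 2 counts in a WT OC library, under the floor of 3, and up to 802 counts in a null OC library. Cav1, a membrane protein of fat cells and many others, fell from 79.2 ± 6.0 to 17.2 ± 3.1 TPM in OC but rose from 2.60 ± 0.62 to 15.0 ± 1.6 TPM in BMM. These OC values compare WT libraries with osteoclast markers and null libraries nearly without them, as set out above.

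Genes whose level moved most like a member's across the 12 OB libraries, as deviations from their group's mean over 12899 genes, are given as a description; the libraries share depth and cell makeup. For Pparg they were Syne3 (Pearson r = 0.94, Spearman rho = 0.97), Arl10 (0.86 and 0.83), Anks1 (0.84 and 0.74), Reck (0.83 and 0.77) and Npr3 (0.82 and 0.76). For Lpl they were Abraxas1 (0.95 and 0.91), Phf19 (0.95 and 0.92), 2310033P09Rik (0.92 and 0.81), Pcp4l1 (0.91 and 0.84) and Pign (0.90 and 0.94). Adipoq had too few counts for such a comparison.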

How the data were processed

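Per the file headers, the deposited tables give for each Ensembl mouse transcript its length, effective length, estimated count and TPM. The submitters' processing notes name kallisto, DESeq2 and a human genome build; versions and annotation are not given in the sources used here. The authors' TPM values carry no depth. Of 88198 transcripts, 97.643% matched GENCODE M21 (GRCm38) by identifier; unmatched ones held 0.6055% to 0.9602% of counts and were left out. The deposited estimated counts and TPM were summed per gene, and the counts were rounded.

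After filterByExpr and TMM scaling, genes were tested with edgeR 4.0.16 (quasi-likelihood, robust) in R 4.3.3, with limma 3.58.1, at a Benjamini-Hochberg adjusted p of 0.05. Genotype was fitted on the 12 libraries of a culture, other contrasts on all 36 (30 residual degrees of freedom). Scripts were tested on simulated data. Replicates were compared before averaging; none were duplicates (lowest chi-square per gene 3.46). Alternatives were RLE scaling, other filters, DESeq2 1.42.0, limma-voom, a replicate block, length and GC offsets, and leaving out each library.

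The members and the lists were chosen with earlier results of these data known. All 10 members are named; from each list, in OB, the 3 of smallest p per direction whose mean reached 1 CPM, in BMM and OC at most 2. Of the genes that this rule names, 1 is not reported here. CPM are counts scaled by TMM library size. For likeness the 5 genes with the highest Pearson r were taken. Sequences come from RefSeq and GENCODE; protein sequences were not used here. The labels name no batch.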

Additional observations from a re-analysis of the deposited data

Results flagged for a closer look

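A library stood apart from the others of its group, by Dixon's criterion at 95%, in 5 of the 29 group and gene combinations tested; chance gives about 1 in 20. They were Pparg in null OB replicate 1 (2.34 TPM, above the other null OB libraries), Fabp4 in WT BMM replicate 1 (32.8 TPM), Plin4 in null BMM replicate 2 (0.0795 TPM, from 7 counts), Lpl in WT OC replicate 4 (616 TPM) and Lpl in WT OB replicate 3 (30.1 TPM). Without null OB replicate 1 or WT OB replicate 3 the OB calls of Pparg and Lpl were kept.

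The genotype effect, as a log2 difference between cultures tested with edgeR, differed past the threshold in 10 cases. From BMM to OC it was larger by 1.53 for Cebpa and 2.27 for Fabp4. From BMM to OB it was higher by 1.57 for Pparg and 2.20 for Lpl, and it differed by -1.12 for Cebpa and -0.98 for Fabp4. From OC to OB it was higher by 1.56 for Pparg and 2.44 for Lpl, and it differed by -2.65 for Cebpa and -3.25 for Fabp4. The null OC libraries hold few osteoclast transcripts, so the OC cases rest on groups of different marker makeup, and its part was not tested.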

How the results depend on the processing

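In OB, 4419 genes passed the threshold, against 2094 with each library's length trend removed (1679 shared), 2291 with length and GC trends removed (1804 shared) and 1980 with those and the replicate block (1584 shared). Members past the threshold in OB went from 4 to 1, Cebpa, in that last fit, where Pparg was at -0.74 (adjusted p = 0.0554), Lpl at 0.65 (0.0674) and Fabp4 at -0.16 (0.443); the cause was not tested. Fabp4 lost its OB call in 15 of 23 alternatives (-0.54 to -0.14) and its BMM call in 10 of 23; Cebpa gained a BMM call in 8 of 23. Pparg, Lpl and Cebpa otherwise kept their OB calls, and in OC all 4 kept theirs. Leaving out 1 library gave 3797 to 4352 genes in OB, 5798 to 6327 in BMM and 7600 to 8287 in OC, and 3 to 4, 2 to 4 and 4 members. The log2 ratio of mean Lpl in OC was -1.68 in CPM.

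Replicate numbers showed no clear pairing of libraries, though weak correlations cannot exclude one. Same-numbered WT and null OB libraries correlated at -0.154 to 0.173, with 3 of 6 pairs over 0.1. Of the 6 WT OB libraries, 2 correlated best with their own number. Between WT BMM and WT OC the range was -0.07 to 0.128, and 3 of 6 WT BMM libraries correlated best with their own number. Between null BMM and null OC it was -0.29 to 0.081, and 1 of 6 did. With the replicate block alone 4086 genes passed in OB, 5648 in BMM and 7564 in OC, with 4, 3 and 4 members. The Pparg difference of effects between OC and BMM changed sign, to -0.0094, and passed in neither fit. The alternative of primary-chromosome transcripts was not run, since each member has 1 identifier.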
